A study of Mus musculus with 147 samples.

Results

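A set of 8 genes that encode proteins of the acrosome was followed, 8 of the 31053 rows of a single-cell UMI count table: Acrv1, Acr, Spaca1, Spaca3, Spaca7, Zpbp, Zpbp2 and Acrbp. They were chosen by name, and all 8 were present in the table. The study collected germ cells of male mice from E6.5 to adulthood, lysed cells one by one and counted their mRNA molecules by STRT-seq, a method that tags each molecule with a unique molecular identifier (UMI). The cells described in detail are wild-type testis cells of PND12, PND14, PND30, PND35 and adult mice (PND, postnatal day), bred from Blimp1-mVenus and Stella-ECFP reporter males and C57BL/6 females. At PND30 suspended cells were stained for DNA and sorted into gates of 1N, 2N and 4N content, whereas other postnatal cells were selected by morphology. The names of PND14 cells also carry a DNA-content entry, which differs between replicates. Replicate 1 held 285 cells marked 2N and 188 marked 4N, and replicate 2 held 94 cells marked 2N and 285 with none given. The same entry reads 2N for every wild-type cell kept from E6.5 to PND7. Outside PND30 it therefore does not by itself show a sort by DNA content. GEO's labels name only the libraries, so that time-point, genotype, replicate and gate were read from the deposited table of cells and from the cell names.

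The acrosome is a vesicle that grows out of the Golgi apparatus and spreads as a cap over the nucleus of the spermatid. It carries the enzymes and binding proteins that a sperm releases or exposes at the egg. Spermatids are haploid (1N), spermatocytes in meiosis I are 4N, and a 2N gate can hold secondary spermatocytes, spermatogonia and somatic cells. Acr encodes acrosin, the main acrosomal serine protease, and Acrbp encodes the protein that binds its precursor. Zpbp and Zpbp2 encode zona pellucida-binding proteins of the acrosomal matrix. Spaca1 encodes a protein of the inner acrosomal membrane, Spaca3 a lysozyme-like protein, Spaca7 a secreted acrosomal protein and Acrv1 the matrix antigen SP-10.

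On the mouse build GRCm38 (GENCODE M21), Acrv1 lies on chromosome 9 from 36693220 to 36698843, Acr on chromosome 15 from 89568326 to 89574585, and Spaca1 on chromosome 4 from 34024874 to 34050191. Spaca3 lies on chromosome 11 from 80858365 to 80867814, Zpbp on chromosome 11 from 11279626 to 11462408 and Zpbp2 on chromosome 11 from 98551097 to 98558665. Spaca7 lies on chromosome 8 from 12573029 to 12600744 and Acrbp on chromosome 6 from 125049689 to 125063267. All 8 are annotated as protein coding. Zpbp overlaps Spata48, and Acrbp overlaps the antisense gene 4930557K07Rik. The strand setting of the counting is not given in the sources used here, so the counts of these 2 genes may hold reads of their neighbours.

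A pool is the set of cells of 1 time-point, replicate and, at PND30, gate. Each postnatal replicate is 1 mouse, whereas the paper lists more than 1 embryo or gonad for each replicate before birth. Wild-type cells of 7 ages or gates in 2 replicates each gave 14 pools, which held 88 to 473 cells (3549 in all, from 39 libraries), with 16808218 to 187788707 UMIs per pool and medians of 190973 to 437045 UMIs per cell. All libraries draw on the same 96 cell barcodes. Levels are given in CPM, the UMIs of a gene per 1000000 UMIs of the pool. The replicates of PND12, PND14 and adult differed in the cells they held. Clusters made without the acrosome genes and the marker genes assigned 1.33% of the cells of adult replicate 1, and 30.9% of those of adult replicate 2, to spermatid-like clusters. The summed level of the 5 Leydig cell markers was 1089 CPM in adult replicate 1 and 7.20 CPM in adult replicate 2. The 8 Sertoli cell markers summed to 2103 and 1272 CPM in replicate 1 of PND12 and PND14, against 879 and 278 CPM in replicate 2. Results that rest on these 3 ages are therefore given by replicate. The summed Sertoli cell markers were at or under 125 CPM in the PND30 and PND35 pools.

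Sorting at PND30 divided the genes into 4 whose level climbed from the 4N to the 1N gate and 4 whose level was already high in the 4N gate. In the first set, Acrv1 stood at 134 and 74.0 CPM in 4N (replicates 1 and 2), at 318 and 221 CPM in 2N, and at 370 and 527 CPM in 1N. Spaca1 stood at 166 and 73.8 CPM in 4N, at 404 and 262 CPM in 2N, and at 467 and 571 CPM in 1N. Neither gene had a 2N pool inside the range of its 4N or 1N pools. Spaca3, the lysozyme-like gene, had 145 and 79.6 CPM in 4N, 366 and 254 CPM in 2N, and 429 and 587 CPM in 1N. Spaca7 had 109 and 41.7 CPM in 4N, 281 and 181 CPM in 2N, and 316 and 388 CPM in 1N. For these 4 genes the 3 gates kept the order 4N, 2N, 1N in both mice. Their 4N values were higher in replicate 1, where 18.8% of the 4N cells fell into spermatid-like clusters, than in replicate 2, where 6.32% did. In summed counts, fewer cells of a type and less RNA per cell cannot be told apart.

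The genes of the acrosin pair showed another pattern. Acr had 361 and 366 CPM in 4N, 409.6 and 342 CPM in 2N, and 414 and 380.0 CPM in 1N. Acrbp had 514 and 556 CPM in 4N, 548 and 492 CPM in 2N, and 606 and 666 CPM in 1N. For both genes the 1N pools lay above the 4N pools, by smaller margins than in the first set. The zona pellucida-binding genes had no such order across the gates. Zpbp had 251 and 290.2 CPM in 4N, 295 and 298 CPM in 2N, and 289 and 241 CPM in 1N, and its 4N and 1N pools overlapped below both 2N pools. Zpbp2 had 452 and 535 CPM in 4N, 475 and 453 CPM in 2N, and 509 and 409.8 CPM in 1N, and all 3 gates overlapped.

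**Figure D1:**
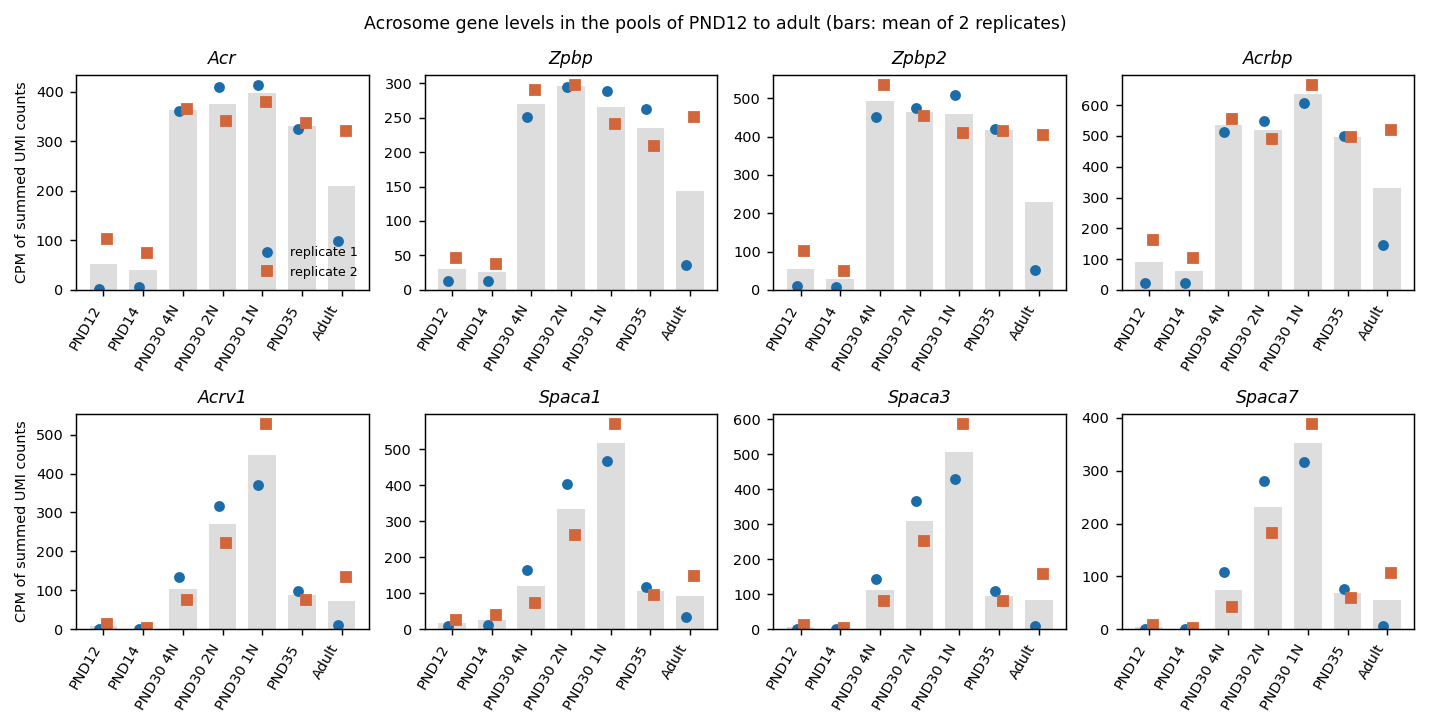
Level of each gene in CPM (vertical axis, linear, each panel on its own scale) in the 2 replicate pools of each age or gate; grey bars are the means of 2 pools. Acrv1, Spaca1, Spaca3 and Spaca7 (lower row) rose stepwise from 4N to 1N at PND30 in both replicates, while Acr, Zpbp, Zpbp2 and Acrbp (upper row) stood near their 1N level in 4N.

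The comparison of 1N with 4N asks which genes differ between haploid cells and cells in meiosis I. A quasi-likelihood test (edgeR) fitted over all 14 pools called none of the 8 genes, at adjusted p-values of 0.244 (Spaca1) to 1 (Zpbp2). It called 0% of the 24376 genes tested in either direction, although 4292 of them, with Spaca1 the 1 acrosome gene among them, had an unadjusted p under 0.05. DESeq2 on the same pools called 8.84% of genes higher in 1N and 6.97% lower, with Spaca1 as the single acrosome gene (adjusted p = 0.0362). The dispersion of this fit includes the unlike replicates of PND12, PND14 and adult. Since the 3 gates of a replicate came from the same mouse, the 6 PND30 pools were also fitted with the mouse as a term.

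In that fit 4 of the 8 genes were higher in 1N than in 4N, against 23.9% of the 20269 genes tested, and none was lower, against 16.9%. Spaca7 was 6.06-fold higher in 1N (log2 fold change 2.60 ± 0.31 SE, edgeR adjusted p = 2.24e-14). Spaca3 was 5.49-fold higher (2.46 ± 0.29, edgeR adjusted p = 4.57e-15), Spaca1 5.45-fold (2.45 ± 0.29, edgeR adjusted p = 4.09e-15) and Acrv1 5.23-fold (2.39 ± 0.30, edgeR adjusted p = 8.96e-14). Acrbp (0.44 ± 0.24), Acr (0.32 ± 0.26), Zpbp (0.16 ± 0.28) and Zpbp2 (0.08 ± 0.25) did not pass, with edgeR adjusted p-values of 0.122 to 0.821. The median log2 fold change was 1.42 over the 8 genes and 0.17 over all genes tested. The same 4 genes passed without the mouse term, both on the 6 PND30 pools (edgeR adjusted p-values of 0.00219 to 0.00303, beside 16.8% of genes higher and 12.2% lower) and on the 4 pools of the 1N and 4N gates alone (0.0103 to 0.0123, beside 14.1% higher and 12.4% lower). The fit with the mouse term has few residual degrees of freedom and borrows its spread across genes. Its adjusted p-values were far below those of the same 6 pools without the term. Deviations of the 2 mice correlated at 0.61 for 4N and 2N, but at -0.34 for 4N and 1N and at 0 for 2N and 1N. A mouse effect shared by all 3 gates was thus not seen, and the small p-values of this fit are to be read with that limit.

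The CPM of 6 genes did not overlap between the 1N and 4N pools and was higher in 1N, as was that of 30% of all genes tested. Scaling by DESeq2-type (RLE) factors moved the median of all genes in this contrast from 0.08 to 0.40 on the log2 scale. Under these factors Acrbp (0.70) and Acr (0.57) lay above that median, Zpbp (0.40) at it and Zpbp2 (0.32) below it, while Acrv1 (2.61), Spaca1 (2.61), Spaca3 (2.67) and Spaca7 (2.73) stayed far above. Neither Acr nor Zpbp, Zpbp2 or Acrbp was called for 1N against 4N under any of the settings tried.

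The 2N gate lay between the others for the same 4 genes. Fitted with the mouse term, Spaca7 was 3.18-fold higher in 2N than in 4N (log2 fold change 1.67 ± 0.30, edgeR adjusted p = 6.13e-06), Spaca1 2.83-fold (1.498 ± 0.27), Spaca3 2.76-fold (1.46 ± 0.28) and Acrv1 2.59-fold (1.37 ± 0.28). These 4 of 8 stood against 11% of all genes higher and 1.27% lower. Against 1N, the log2 fold changes of the 4 genes in 2N were -0.93 (Spaca7) to -1.01 (Acrv1) (edgeR adjusted p = 0.0179 to 0.0472), against 1.96% of all genes lower and 1.8% higher. The other 4 genes passed in neither comparison. Without the mouse term neither comparison called any of the 8 genes, at edgeR adjusted p-values of 0.129 or more on the 6 PND30 pools. The fit over all 14 pools called 0% of genes in both, and DESeq2 called 9 genes for 2N against 4N and 25 for 2N against 1N, none of them among the 8. These 3 comparisons share their pools and are not independent of one another. The spermatid-like clusters held 75.1% and 46.6% of 2N cells in replicates 1 and 2, beside 92.7% and 88.3% of 1N cells.

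**Figure D2:**
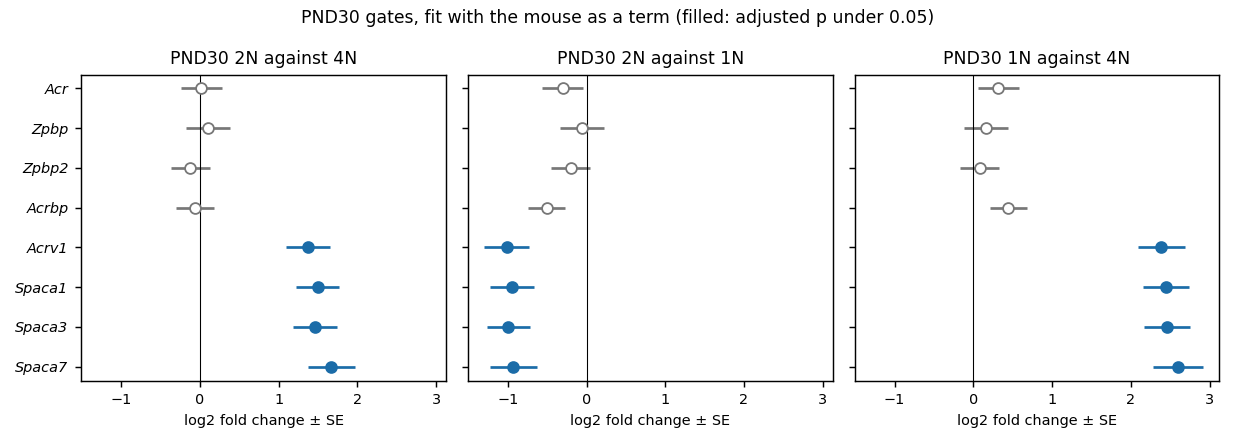
Log2 fold changes (points, horizontal axis) with standard errors (lines) of the 8 genes in the 3 comparisons of PND30 gates, from the fit of 6 pools with the mouse as a term; filled points passed an adjusted p of 0.05. The lower 4 genes are filled in each panel, and the upper 4 are open, with smaller changes.

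Gates held cells of more than 1 class, so levels were also taken by class. When the cells of spermatid-like clusters were left out of the 4N pools, and all other cells out of the 1N pools, the 4N levels of Acrv1 were 45.4 and 28.1 CPM, those of Spaca1 47.9 and 28.4 CPM, those of Spaca3 44.2 and 30.9 CPM and those of Spaca7 27.3 and 11.2 CPM. The 4N levels of Acr (363 and 368 CPM) and Acrbp (536 and 574 CPM) stayed close to those of the whole gate (361 and 366 CPM, and 514 and 556 CPM). This choice of cells was made after seeing the data, and the clusters rest on the same counts. In the fit over 14 pools with these cells left out, Spaca1 was 15.8-fold higher in 1N than in 4N (edgeR adjusted p = 0.0226), with 12% of genes called higher and 8.35% lower. Spaca7 was 21.4-fold higher at an edgeR adjusted p of 0.0691 and did not pass. The cells kept were chosen by clusters of these same counts, so the p-values and calls of this fit are no test of the gates.

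Levels in the clusters set the genes in an order. Each cluster was named from fixed marker genes where at least 3 of them were detected, and the names are rebuilt and not those of the study. In the spermatogonia-like cluster 7 the 8 genes had 0.20 (Acrv1) to 17.3 (Acrbp) CPM over all its cells. In the early spermatocyte-like cluster 5, Acr already had a mean of 88.0 ± 68.2 CPM and Acrbp of 117 ± 93.5 CPM (SD over 4 pools with at least 10 such cells), whereas Acrv1 had 1.63 ± 1.18 CPM, Spaca3 1.66 ± 1.95 CPM and Spaca7 0.94 ± 1.17 CPM. The other early spermatocyte-like cluster, cluster 9, had higher levels in 168 cells of adult replicate 1. These were 168 CPM for Acr, 235 CPM for Acrbp, 4.79 CPM for Acrv1, 4.28 CPM for Spaca3 and 2.36 CPM for Spaca7. Spaca1 was at 34.0 ± 19.5 CPM in cluster 5, beside 25.1 ± 6.86 CPM in the late spermatocyte-like cluster 4 (6 pools) and 58.9 ± 22.6 CPM in the late spermatocyte-like cluster 1 (9 pools). The ranges of its pools in cluster 5 overlapped those in both.

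From early to late spermatocyte-like cells Acr reached 369 ± 20.03 CPM, Acrbp 592 ± 46.5 CPM, Zpbp2 550.5 ± 57.7 CPM and Zpbp 263 ± 28.3 CPM in cluster 4. No pool held at least 10 cells of both an early and a late spermatocyte-like cluster. This step therefore cannot be told apart from age and mouse. In the same cluster Acrv1 had 27.2 ± 5.52 CPM, Spaca3 25.1 ± 6.23 CPM and Spaca7 15.54 ± 4.85 CPM. In 5 pools that held at least 10 cells of both kinds, all 4 genes of the set that rose were higher in the round spermatid-like cluster 2 than in cluster 4, in 5 of 5 pools, with median folds of 10.46 (Acrv1), 14.4 (Spaca1), 12.3 (Spaca3) and 14.53 (Spaca7). Over the same pools the median folds of Acr, Zpbp2 and Acrbp were 1.07, 0.94 and 0.99. Zpbp was higher in 5 of 5, at a median of 1.18-fold. Cluster 1, another late spermatocyte-like cluster, had intermediate levels of the 4 genes of the set that rose, such as 56.6 ± 16.0 CPM for Acrv1 over 9 pools.

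Within spermatids the sets moved apart once more. Cluster 6 was named elongating spermatid-like from its protamine and transition protein markers, which summed to 5434 CPM against 1179 CPM in cluster 2. Its round spermatid markers also summed higher, to 2029 CPM against 1497 CPM in cluster 2. The paper names its spermatid cluster round spermatids and gives Prm1 among its markers. Whether cluster 6 holds elongating or later round spermatids was not tested. In 8 pools with both spermatid-like clusters, Zpbp2 was lower in cluster 6 than in cluster 2 in 8 of 8, at a median of 0.57-fold (0.35 to 0.76). Acr (0.90-fold), Zpbp (0.90-fold) and Acrbp (0.83-fold) were also lower in 8 of 8 pools. Acrv1 was higher in 8 of 8 pools (1.44-fold), as were Spaca3 (1.35-fold) and Spaca7 (1.35-fold), and Spaca1 was higher in 6 of 8 (1.19-fold). These cluster values are descriptions, with no test. CPM is a share of the mRNA counted and not an amount per cell.

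**Figure D3:**
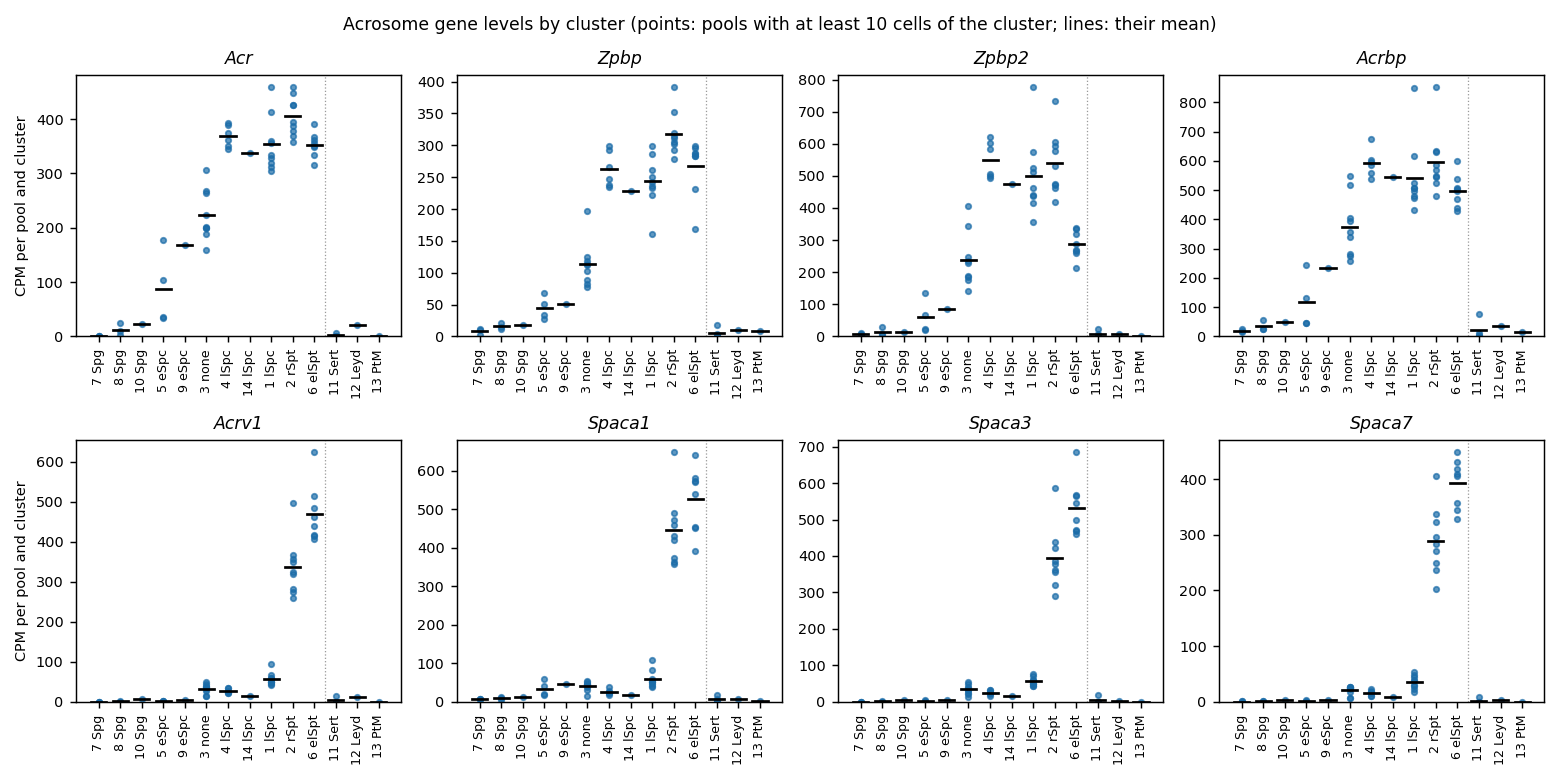
Level of each gene in CPM (vertical axis, each panel on its own scale) in every pool with at least 10 cells of a cluster (points) and the mean of these pools (black lines). Clusters run from spermatogonia-like (Spg) through early and late spermatocyte-like (eSpc, lSpc) and the unnamed cluster 3 to round and elongating spermatid-like (rSpt, elSpt), with Sertoli-, Leydig- and peritubular-like cells (Sert, Leyd, PtM) right of the dotted line. Cluster 6 (elSpt) is named from protamine and transition protein markers, and its round spermatid markers also summed higher than those of cluster 2. Acr, Zpbp, Zpbp2 and Acrbp climb in spermatocyte-like clusters. Acrv1, Spaca3 and Spaca7 rise there too, from 1.63, 1.66 and 0.94 CPM in cluster 5 to 27.2, 25.1 and 15.54 CPM in cluster 4. Clusters 5 and 4 share no pool with at least 10 cells of each. Acrv1, Spaca3 and Spaca7 climb further at the round spermatid-like cluster.

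Promoters of genes from both sets were searched for short motifs, and those with a match to TGACG are shown. RefSeq (GRCm38.p6) sequences from 250 bases before to 50 after the start were at hand for 7 of the 8 genes (not for Acr), with the first entry used where a gene had more than 1. Both strands were searched for TGACG, the core of the cAMP response element that CREM and related factors bind in testis. It was found in 4 of 7 promoters and in 21.02% of 27025 promoters of all genes. The promoters without a match, not printed here, were those of Acrv1 and Spaca7 of the set that rose and of Zpbp of the other set. Capitals mark TGACG, and CGTCA is its reverse complement. Spaca1 (chr4:34050016-34050315, minus strand), Spaca3 (chr11:80858113-80858412, plus strand), Zpbp2 (chr11:98550847-98551146, plus strand) and Acrbp (chr6:125049677-125049976, plus strand) read:
Spaca1: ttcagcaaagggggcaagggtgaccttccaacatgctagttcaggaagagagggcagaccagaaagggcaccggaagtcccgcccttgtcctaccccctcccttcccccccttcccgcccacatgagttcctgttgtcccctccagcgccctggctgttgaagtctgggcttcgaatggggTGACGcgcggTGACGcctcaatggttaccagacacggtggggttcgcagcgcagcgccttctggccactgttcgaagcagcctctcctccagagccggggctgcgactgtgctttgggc
Spaca3: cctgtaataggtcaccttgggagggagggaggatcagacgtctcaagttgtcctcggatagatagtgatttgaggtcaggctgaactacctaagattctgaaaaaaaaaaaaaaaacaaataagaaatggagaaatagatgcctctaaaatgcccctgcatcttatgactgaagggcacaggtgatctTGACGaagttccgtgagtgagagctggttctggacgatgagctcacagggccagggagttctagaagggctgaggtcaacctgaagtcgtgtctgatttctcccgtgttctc
Zpbp2: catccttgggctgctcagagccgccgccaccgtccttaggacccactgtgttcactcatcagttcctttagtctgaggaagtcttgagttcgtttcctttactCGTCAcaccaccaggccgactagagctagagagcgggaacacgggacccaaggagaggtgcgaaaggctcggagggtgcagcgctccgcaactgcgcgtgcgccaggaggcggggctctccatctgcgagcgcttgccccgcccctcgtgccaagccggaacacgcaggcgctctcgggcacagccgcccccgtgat
Acrbp: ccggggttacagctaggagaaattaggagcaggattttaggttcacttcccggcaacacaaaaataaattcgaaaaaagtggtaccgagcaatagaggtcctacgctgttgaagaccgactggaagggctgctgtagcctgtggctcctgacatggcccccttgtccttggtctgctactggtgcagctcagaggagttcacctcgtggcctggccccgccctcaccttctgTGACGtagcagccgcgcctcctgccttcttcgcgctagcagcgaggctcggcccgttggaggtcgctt

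Counted from the start, the matches began at -69 and -59 in Spaca1, at -62 in Spaca3, at -147 in Zpbp2 and at -18 in Acrbp. Spaca1 and Spaca3 belong to the set that rose from 4N to 1N, and Zpbp2 and Acrbp to the other. The full element TGACGTCA was in none of the 7 and in 1.88% of all promoters. The motif GTTNCC, part of the X box, was in 5 of 7 and 45.5% of all, and the MYB core AACNG in 6 of 7 and 80.4% of all. The motifs were chosen with the sequences in view. A match is a description and not a site of binding.

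Shares of cells with at least 1 UMI were compared with and without thinning to equal depth. Without thinning, all 8 genes were detected in 84.2% to 100% of the cells of every gated PND30 pool, with the first set at 84.2% to 99.5% and the other 4 genes at 100% in 4N. After each cell was thinned to 20000 UMIs, Spaca7 was detected in 58.1% and 22.3% of 4N cells (replicates 1 and 2), in 85.8% and 65.5% of 2N cells and in 94.7% and 91.3% of 1N cells. Acrv1 was detected in 64.4% (exact 95% interval 57.2 to 71.2) and 38.3% (28.5 to 48.9) of 4N cells and in 96.3% and 93.5% of 1N cells. Acr was detected in 100% of 4N cells of both replicates and in 97.9% and 100% of 1N cells. Thinning left out 0 to 6 cells per PND30 pool. These intervals cover counting error only.

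Shares in somatic-like cells served as the background. In the Sertoli-like cluster, with a median of 162456 UMIs per cell, unthinned shares ran from 5.11% (Spaca7) to 39.4% (Acrbp). At 20000 UMIs they ran from 2.94% to 16.9%. The Leydig-like cells, 40 of 42 from adult replicate 1 and with a median of 219070.5 UMIs per cell, had Acr in 95.2% and Acrv1 in 57.1% of cells without thinning, and in 39.0% and 17.1% at 20000 UMIs. Their Acr level was 21.8 CPM. Embryonic cells of E9.5 to E18.5, at a median of 268756 UMIs, had Acr in 3.33% and Acrbp in 49.2% of cells without thinning, but they do not serve as a background for Acrbp, which was at 48.9 and 54.4 CPM in the E9.5 pools. The thinned share of Acrv1 in adult replicate 1, 11.3%, was below that in the Leydig-like cells. In that pool Acrv1 was at 4.79 CPM in the early spermatocyte-like cluster 9, at 7.01 CPM in the spermatogonia-like cluster 10 and at 11.7 CPM in the Leydig-like cells. Whether these Acrv1 values are background was not tested. The Acr share of adult replicate 1, 59.9%, was above the 39.0% of the Leydig-like cells.

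**Figure D4:**
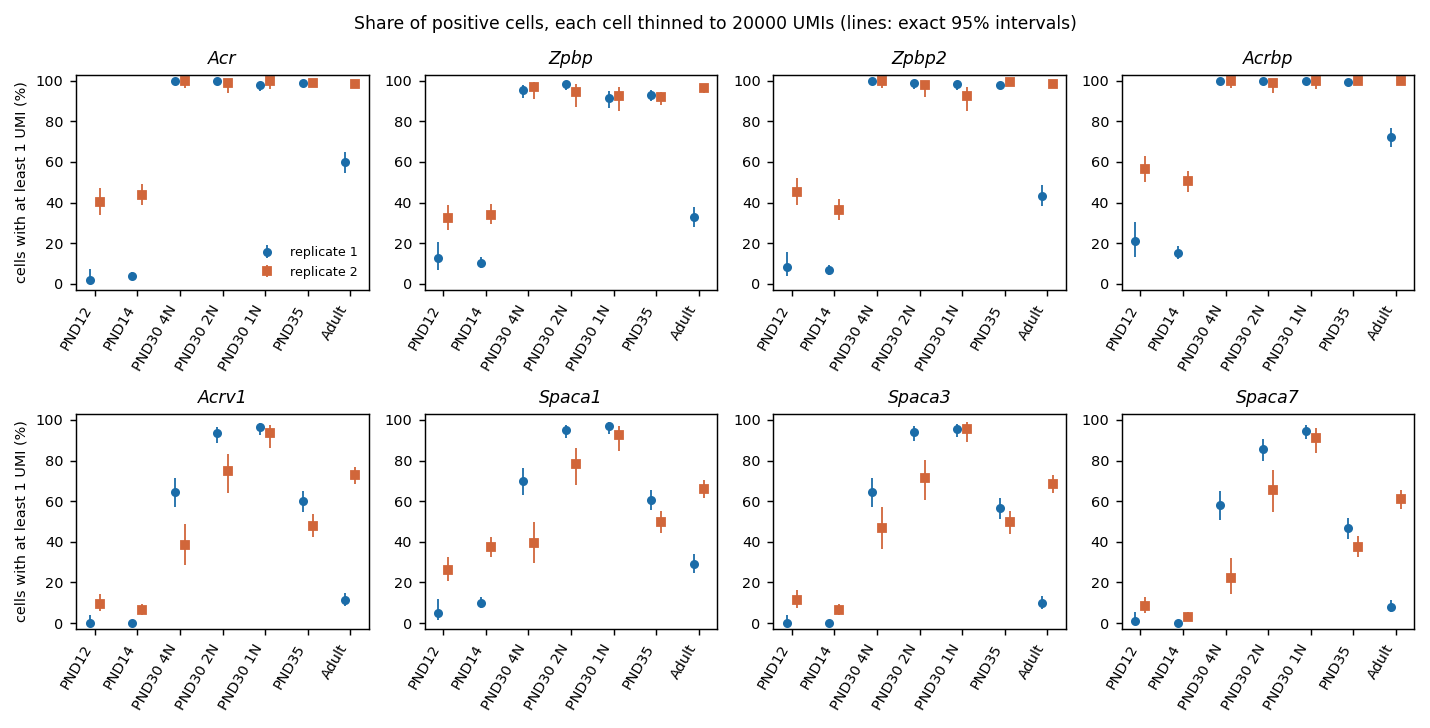
Share of cells with at least 1 UMI of each gene (vertical axis, percent) after thinning every cell to 20000 UMIs, for replicates 1 and 2 of each age or gate with exact 95% intervals (lines). Acr and Acrbp are found in nearly all PND30 cells of every gate, whereas Spaca7 climbs from 58.1% and 22.3% in 4N to 94.7% and 91.3% in 1N.

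At PND12 and PND14, ages at which the first wave of cells reaches early to mid meiosis, levels were low and differed between replicates. Acr had 1.91 and 102.99 CPM at PND12 and 6.38 and 73.8 CPM at PND14. Acrbp had 21.5 and 161 CPM at PND12 and 22.5 and 102.9 CPM at PND14. Acrv1 had 0.11 and 14.4 CPM, then 0.01 and 3.67 CPM. Its thinned shares in replicate 2, 9.65% and 6.43%, were below the 17.1% of the Leydig-like cells, which came mostly from adult replicate 1. In PND12 replicate 2, Acrv1 had 43.5 CPM in 39 cells of the unnamed cluster 3 and 0.15 CPM in 41 Sertoli-like cells. In PND14 replicate 2 its levels were 13.2 CPM in 24 cells of cluster 3 and 15.4 CPM in 10 Sertoli-like cells. Whether the Acrv1 values of these pools are background was not tested. Spaca3 had no UMI in replicate 1 of either age, where 3 UMIs is the limit that a count of 0 allows, and 12.3 and 3.98 CPM in replicate 2. For each of these genes replicate 2 lay above replicate 1 at both ages, and the ages overlapped. None of the 8 genes was called for PND14 against PND12 and 0% of all genes were, with 572 genes and none of the 8 at an unadjusted p under 0.05. DESeq2 called 6 genes and none of the 8. No cell of these 4 pools fell into a spermatid-like cluster. The 4 protamine and transition protein markers nevertheless summed to 124 and 125 CPM in replicate 2 of PND12 and PND14, against 6.00 and 14.2 CPM in replicate 1, and their part in these values was not tested. The PND14 replicates also differ in the DNA-content entry of their cell names, as given above, and both comparisons with PND14 rest on them.

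PND35 replicates were close to each other. Acr had 326 and 338 CPM, Acrbp 502 and 495 CPM, Zpbp 262 and 209 CPM and Zpbp2 420.5 and 414 CPM. Acrv1 had 98.7 and 75.2 CPM, Spaca1 117 and 95.8 CPM, Spaca3 108 and 80.7 CPM and Spaca7 77.1 and 58.3 CPM. For all 8 genes both PND35 pools lay above both PND14 pools, as they did for 40.3% of all genes. Log2 fold changes against PND14 ran from 2.10 ± 0.91 (Spaca1) to 5.88 ± 1.70 (Spaca7). They did not pass in the fit over 14 pools, at edgeR adjusted p-values of 0.0526 (Spaca7) to 0.143 (Acr), with 0% of genes called and 10654 genes, 6 of the 8 among them, at an unadjusted p under 0.05. DESeq2 called all 8, at adjusted p-values of 1.34e-04 to 0.0373, beside 27.3% of all genes higher and 21.6% lower. With only the pools of these 2 ages, edgeR called Spaca7 and Zpbp, beside 19.9% of genes higher and 21.7% lower. The Sertoli marker sums were 38.0 and 44.6 CPM at PND35. The fit over 14 pools called 2 of the 8 with RLE factors, beside 11.3% of genes higher and 6.84% lower.

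Adult values split by replicate. Acrbp had 146 and 518 CPM, Acr 99.0 and 321 CPM, Zpbp2 53.2 and 406 CPM and Zpbp 35.6 and 251 CPM. Acrv1 had 11.02 and 134 CPM, Spaca1 34.0 and 149 CPM, Spaca3 10.1 and 159 CPM and Spaca7 5.86 and 106 CPM. Replicate 1 lay below every PND30 and PND35 pool for all 8 genes. The CPM of Acr and Zpbp2 was lower in both adult pools than in both PND35 pools, as was that of 11.8% of all genes. No gene of the 8 was called for adult against PND35, where 0% of all genes were. At an unadjusted p under 0.05 were 2379 genes and none of the 8, and DESeq2 called 16 genes and none of the 8. Without adult replicate 1 the log2 fold change of Acrv1 went from -0.31 to 0.62, and without replicate 2 to -2.91. PND35 is shared with the comparison against PND14.

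The order of the mean levels began with 1N, 2N, 4N, PND35 and adult for Acrv1, Spaca1, Spaca3 and Spaca7. The pools of 1N and 2N, and of 2N and 4N, did not overlap for these 4 genes, where 30% of all genes were higher without overlap in 2N than in 4N and 12.2% lower in 2N than in 1N, whereas those of later neighbours in the order did. For Acr the order was 1N, 2N, 4N, PND35, adult, PND12, PND14, with gaps only on either side of PND35. For Zpbp2 the order was 4N, 2N, 1N, PND35, adult, PND12, PND14, and the first 4 groups overlapped in turn. Before PND12 all 8 genes were below their PND30 and PND35 pools, with pool maxima of 5.10 (Spaca7) to 57.7 (Acrbp) CPM over 51 pools of E6.5 to PND10. Some early pools still exceeded PND12 and PND14. Acrbp had 56.9 and 52.9 CPM at PND4, against 21.5 and 22.5 CPM in replicate 1 of PND12 and PND14 and 161 and 102.9 CPM in replicate 2. Spaca1 had 49.2 and 26.4 CPM at PND1, against 8.09 and 12.2 CPM in replicate 1 and 25.7 and 38.2 CPM in replicate 2.

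**Figure D5:**
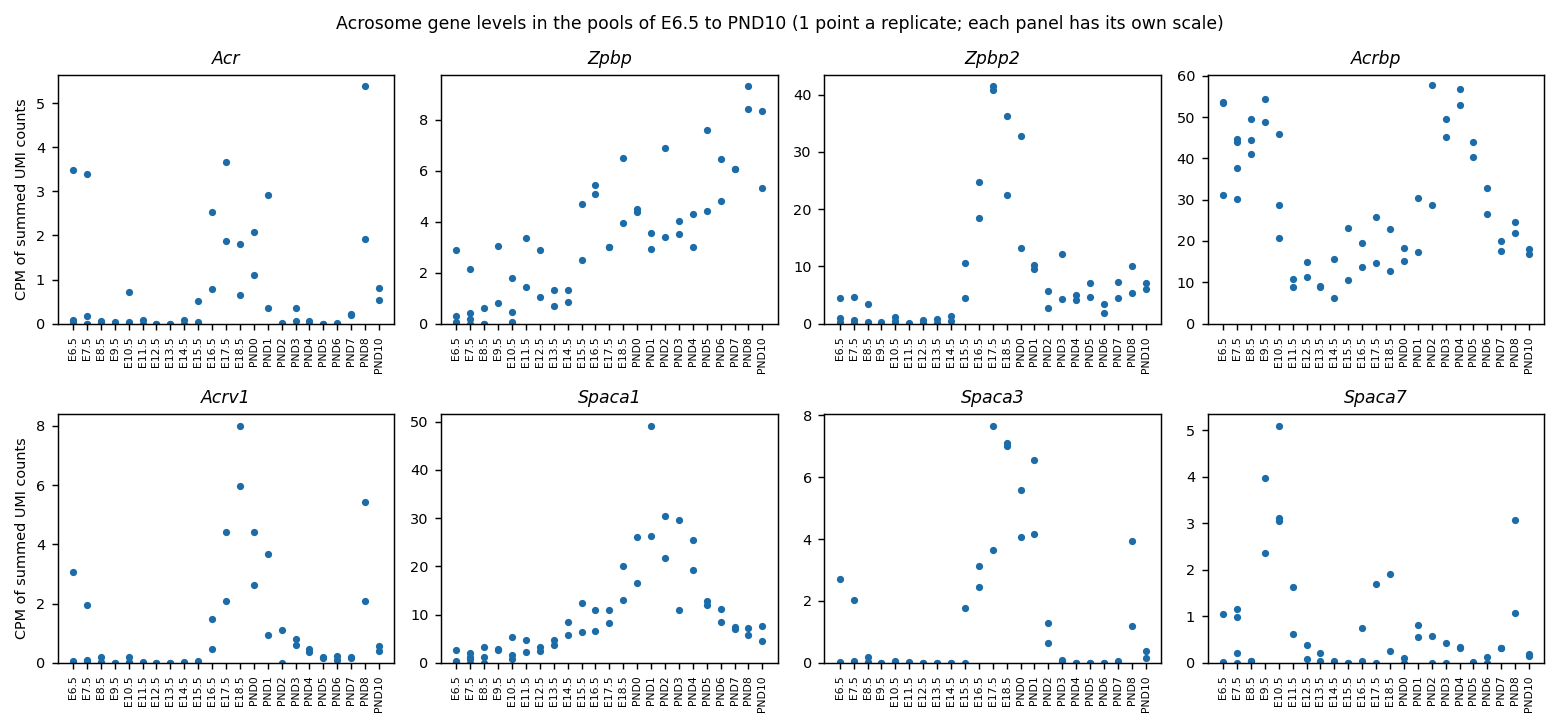
Level of each gene in CPM (vertical axis, linear, each panel on its own scale) in the 51 pools of E6.5 to PND10, 1 point a replicate. Zpbp2 reaches 41.4 CPM at E17.5, while Acr stays at or under 5.38 CPM.

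A list of 36 other acrosome genes held 14 for building the organelle and 22 for its contents or for fertilization, and all were tested. The fit over 14 pools called none for 1N against 4N, with 3 at an unadjusted p under 0.05. Fitted with the mouse term, 19 of the 22 genes for contents or fertilization were higher in 1N and none was lower, with a median log2 fold change of 2.16 against 0.17 over all genes tested. Of the 14 genes for building the organelle 4 were higher and 2 lower, with a median of 0.13, where 23.9% of all genes were higher and 16.9% lower. The largest rises were those of Tmem95, needed for fusion of sperm and egg (8.33-fold, 3.06 ± 1.29), Cylc1, a cylicin of the perinuclear theca (6.26-fold, 2.65 ± 0.36), and Prss37, a protease-like protein (6.19-fold, 2.63 ± 0.36). The 2 genes that fell were Gopc, a Golgi-associated protein without which the acrosome does not form (log2 fold change -2.47 ± 0.45), and Vps54, a Golgi tethering factor (-2.00 ± 0.71). These 5 were picked from the fit with the mouse term after the fit over 14 pools made no call.

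The genes whose log2(CPM + 1) followed a gene of the 8 most closely over the 14 pools were found among 12435 genes that reached 20 CPM in a pool. They were Tmco5 (r = 1.00) and Txndc8 (r = 0.999) for Acrv1, Tmco5 and Llcfc1 for Spaca3 (r = 1.00 each) and Lyzl4 and Lyzl4os for Spaca7 (r = 0.999 each). For Acr they were Ms4a13 and Ankrd36 (r = 0.999 each), for Zpbp2 Rsph9 (r = 0.999) and Tsnaxip1 (r = 0.999), and for Acrbp Oscp1 and Actl9 (r = 0.998 each). Zpbp was followed by AC129178.1 (r = 0.998) and Mkrn1 (r = 0.996), and Spaca1 less closely by Sclt1 (r = 0.993) and Cep85l (r = 0.992). The pools share their cell makeup and their depth, and r here is a description.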

How the data were processed

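The data were single-cell UMI counts of mouse germline and testis cells. Per the study's methods, the authors took the cell barcode and UMI from each read pair with UMI-tools, trimmed reads with seqtk, aligned them to mm10 with STAR keeping reads with up to 3 alignments, assigned reads to genes with featureCounts, and removed PCR duplicates by barcode and UMI with the count tool of UMI-tools. The deposited table holds these raw counts for 31053 genes and 13032 cells, and a deposited table of cells gives library, time-point, genotype and replicate. Base calling used CASAVA 1.8 per the submitters' processing notes.

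Wild-type cells with more than 2000 genes and 10000 to 1000000 UMIs were kept (11598 of 11896). Counts were summed per pool and tested with edgeR 4.0.16 (glmQLFit, TMM, filterByExpr, R 4.3.3) over 14 pools, 2 replicates a group, in 6 comparisons, with Benjamini-Hochberg adjustment over all genes and a threshold of 0.05. Standard errors are the fitted log2 difference divided by the root of its F. DESeq2 1.42.0, RLE factors, no filter, all deposited cells, no somatic-like cells, only the pools compared, and leaving out each pool were alternatives. At PND30 a replicate number marks 1 mouse sorted into 3 gates, so its fit with the replicate as a block stands beside each result. Deviations of the 2 mice correlated at 0.61 for 4N and 2N, at -0.34 for 4N and 1N and at 0 for 2N and 1N, over 5088 genes.

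Cells of PND12 to adult were clustered without the acrosome and marker genes (leidenalg 0.10.2, 1000 variable genes, 30 components, 20 neighbours, Leiden resolution 0.5). A cluster was named for the marker list with the highest mean log2 ratio over other clusters, if at least 0.5 and if 3 markers reached 10 CPM, a rule set after the clusters were seen. Cells were isolated one by one and no doublet caller was run. Share intervals are exact Clopper-Pearson (95%). The fits were tested on simulated data. The named genes were the 8 members, the 2 most like each, and the 3 largest rises and falls among other acrosome genes. Members, lists and tests were chosen with earlier results of these data known.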

Additional observations from a re-analysis of the deposited data

Results flagged for a closer look

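Cells of 2 kinds stood outside the comparisons and held signal of the acrosome genes above the limit that a count of 0 allows. The first are the 51 pools of E6.5 to PND10. Zpbp2 reached 41.4 CPM in E17.5 replicate 2, where replicate 1 had 40.8 CPM. Acrv1 reached 8.00 CPM in E18.5 replicate 2 and Spaca3 7.66 CPM in E17.5 replicate 2. Acrv1 was at 5.44 CPM in PND8 replicate 2, a value that only the E18.5 pools exceeded. Spaca1 reached 49.2 CPM in PND1 replicate 1 and Acrbp 57.7 CPM in PND2 replicate 2. Spaca7 reached 5.10 CPM in E10.5 replicate 3, Zpbp 9.32 CPM in PND8 replicate 1 and Acr 5.38 CPM in PND8 replicate 2. Acrbp was the single gene with UMIs in all 51 pools, at 6.21 CPM or more. These values were not compared with a control group.

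The second are 192 cells of PND30 replicate 2 with no gate in their names. They held Acrv1 at 137 CPM, Acr at 316 CPM, Spaca1 at 135 CPM, Spaca3 at 146 CPM, Spaca7 at 118 CPM, Zpbp at 199 CPM, Zpbp2 at 398 CPM and Acrbp at 497 CPM. Of these cells 28.6% fell into spermatid-like clusters.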

How the results depend on the processing

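With the replicate as a block, the members and all genes called were 4 and 8278 for 1N against 4N, 4 and 2491 for 2N against 4N, and 4 and 761 for 2N against 1N, where the fit over 14 pools called 0. For 1N against 4N, 4 members and 5074 genes were called with only the pools compared, 1 and 3481 with DESeq2, and, by choices made after seeing the data, 4 and 5874 on the 6 PND30 pools and 1 and 4912 in gates without cells of the other class. The last of these fits rests on cells chosen by clusters of the same counts and is no test of the gates. DESeq2 called 9 genes for 2N against 4N, 25 for 2N against 1N, 6 for PND14 against PND12 and 16 for adult against PND35. For PND35 against PND14, 2 members were called with RLE factors (4424 genes), no filter (4173), no somatic-like cells (4614) and only the pools compared (9544), and 8 with DESeq2 (11913). Leaving out 1 pool gave 0 to 3087 genes for adult against PND35, the latter without adult replicate 2, and 0 members throughout.

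Signs turned as follows. Zpbp2 in 1N against 4N was -0.20 in gates without the other class. In 2N against 4N, Acr was 0.10 with RLE factors and DESeq2, 0.0077 without somatic-like cells, 0.0196 on the 6 PND30 pools and 0.0157 with the block, and Acrbp was 0.0078 with RLE factors and DESeq2. Leaving out pools gave ranges of -0.0516 to 0.31 (Zpbp) and -0.14 to 0.25 (Zpbp2) for 1N against 4N, and of -0.13 to 0.15 (Acr), -0.20 to 0.0576 (Acrbp), -0.0758 to 0.28 (Zpbp) and -0.31 to 0.0785 (Zpbp2) for 2N against 4N. For 2N against 1N Zpbp ran from -0.0612 to 0.0147. For PND14 against PND12 the ranges were -3.29 to 4.67 (Acr), -2.21 to 1.80 (Acrbp), -9.84 to 4.30 (Acrv1), -0.60 to 1.88 (Spaca1), -11.9 to 10.4 (Spaca3), -3.51 to 1.87 (Spaca7), -1.31 to 1.25 (Zpbp) and -3.24 to 1.89 (Zpbp2). For adult against PND35 they were -1.58 to 0.48 (Spaca1), -1.70 to 0.0469 (Acrbp), -3.46 to 0.64 (Spaca7), -2.91 to 0.62 (Acrv1), -2.66 to 0.0817 (Zpbp) and -3.15 to 0.74 (Spaca3). Values against pools at or near 0 depend on the prior count. The cause of these changes was not tested.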

Other observations

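In 2 of the early pools, E6.5 replicate 2 and E7.5 replicate 2, Acr was at 3.48 and 3.39 CPM and was found in 45.2% and 50.2% of cells. In the other replicates of these ages it was found in at most 1.26% of cells. At PND8, Acr was found in 24.1% and 64.7% of cells. The protamine gene Prm1 stood at 11.3 and 20.9 CPM in the 2 early pools and at 11.7 and 41.9 CPM in the PND8 pools. Prm1 was also at 12.1 CPM in E7.5 replicate 3, where Acr had no UMI in any cell.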
